A study of Mus musculus with 6 samples.

Results

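Long noncoding RNA (lncRNA) genes are transcribed like protein-coding genes but yield RNAs that are not translated into a known protein. Some of these RNAs stay in the nucleus and take part in splicing, nuclear bodies or chromatin organisation. Others carry small nucleolar RNAs (snoRNAs) or microRNAs (miRNAs) that are cut out of the transcript, and many start next to a protein-coding gene on the opposite strand. The genes described here were selected on their annotated class and their measured level: they are all genes of the mouse GENCODE M21 annotation that belong to an lncRNA class and had a mean level of at least 1 FPKM (fragments scaled by exon length and library size) over the 6 deposited tables. This rule found 261 genes among the 55536 Ensembl gene IDs in the tables, out of 10155 lncRNA genes annotated at any level. By class they were 114 lincRNA genes (between other genes), 64 antisense genes, 57 processed transcripts, 19 genes at bidirectional promoters, 5 sense intronic genes and 2 sense overlapping genes.

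The RNA came from RAW264.7, an established mouse macrophage line that turns towards bone-resorbing osteoclasts under the cytokine RANKL. Every library is from cells treated with 50 ng/mL RANKL. The labels name nothing else for the RANKL group (n = 3), whereas cells of the etelcalcetide group (n = 3) were also exposed to 4 µM etelcalcetide, a peptide agonist of the calcium-sensing receptor. The design text gives 5 days for every sample, whereas labels of single samples read 5 days for replicate 1, 6 for replicate 2 and 7 for replicate 3 in each group. No library without RANKL was analysed here, RAW264.7 is 1 cell line, and nothing says whether the replicates are separate cultures; p-values thus reflect the spread among these samples alone, possibly a technical one.

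The tables corresponded to 13742913 to 16264432 assigned reads per library. Macrophage markers were present in every library. Over 8 genes they summed to 2646 to 2799 FPKM in the RANKL group and to 2979 to 3137 FPKM in the etelcalcetide group. Lyz2 alone made up 1626 to 1858 FPKM with RANKL and 1789 to 1910 FPKM with etelcalcetide. Adgre1, Fcgr1, Itgam and Spi1 were higher with etelcalcetide, while Lyz2, Csf1r, Cd68 and Ptprc did not pass. Adgre1 rose most, from 24.1, 21.9 and 24.3 FPKM to 71.9, 66.5 and 71.8 FPKM. The 9 osteoclast markers summed to 392 to 538 FPKM with RANKL and to 205 to 218 FPKM with etelcalcetide. Of the 8 that could be tested, Acp5, Ctsk, Nfatc1, Ocstamp, Atp6v0d2 and Oscar were lower, while Dcstamp and Mmp9 did not pass. Mmp9 alone made up 154 to 169 FPKM of the sum with etelcalcetide, and the fall was much larger for Ctsk (log2 fold change -8.40) than for Nfatc1 (-1.33). None of the markers of lymphocytes, fibroblasts and osteoblasts, epithelial and endothelial cells, or neutrophils and mast cells reached the level needed for a test, and each of these lists summed to at most 0.751 FPKM. In bulk RNA, fewer cells of a type and less RNA per cell cannot be told apart, and the part of the osteoclast change in the lncRNA results was not tested.

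The comparison asked which lncRNA genes differed when etelcalcetide was present together with RANKL. Of the 261 genes, 253 reached the level for the test (at least 0.5 FPKM and 10 reads in 3 libraries). Among these, 116 changed, which means a Benjamini-Hochberg adjusted p under 0.05 in limma over all genes, and 50 of them were higher and 66 lower with etelcalcetide. That is 45.8% of the lncRNA genes tested, against 53.0% of all 11120 genes tested. By direction, the background was 26.0% higher and 27.0% lower. With library totals as the only scaling, 57 lncRNA genes were higher and 55 lower, and over all genes 3558 and 2272, in place of 2896 and 2998. The median log2 fold change was -0.04 over the lncRNA genes and -0.01 over all tested genes, on a scale that the scaling factors centre near 0. A change of at least 2-fold was found in 13 lncRNA genes that rose and 20 that fell, beside a background of 4.10% and 2.92% of all tested genes. Of these, 3 of the rises and 10 of the falls were genes that reached a mean of 1 FPKM only in the group where they were higher. The selection favours such genes. For 122 lncRNA genes the groups were fully separate, 60 with etelcalcetide above and 62 below, beside 61.2% of all tested genes (36.7% above and 24.5% below).

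The lncRNA genes were weakly expressed, and their fold changes were less precise than those of all tested genes. Their median level was 2.07 FPKM and their median depth 55.7 reads per library, against 665.5 reads for protein-coding genes with a mean of at least 1 FPKM. The median standard error of the log2 fold change was 0.163, compared with 0.0911 over all tested genes. Among genes with 10 to 50 reads per library, 38.5% of lncRNA genes and 46.4% of protein-coding genes changed. With 500 reads or more, 19 of 25 lncRNA genes changed (76%), beside 60.4% of protein-coding genes. Shares at like depth therefore lay on both sides of those of protein-coding genes. By class, 51 of 111 tested lincRNA genes changed, 29 of 59 antisense genes, 27 of 57 processed transcripts and 6 of 19 genes at bidirectional promoters.

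**Figure D1:**
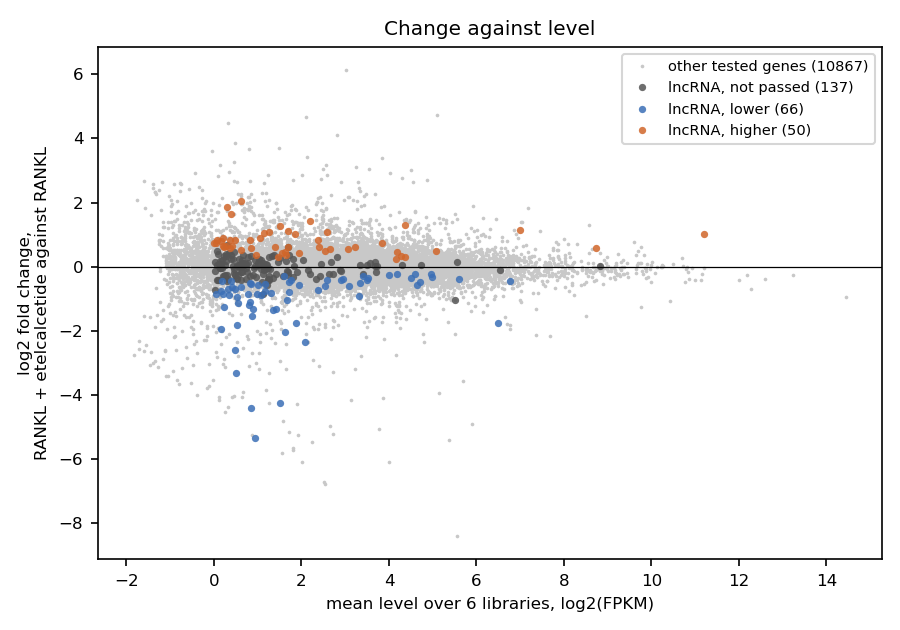
Log2 fold change (RANKL + etelcalcetide against RANKL) of each tested gene against its mean level over the 6 libraries on a log2 FPKM axis. Coloured points are lncRNA genes that were higher (50) or lower (66), dark grey points are those that did not pass (137), and light grey points are the other tested genes; the lncRNA genes stand mostly at the low end of the level axis.

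Because the rule used the mean over both groups, a gene could enter through 1 group alone. This was the case for 24 genes that reached 1 FPKM on average only with RANKL, of which 17 of the 22 tested were lower, and for 25 that did so only with etelcalcetide, of which 15 of the 21 tested were higher. Such genes had to differ to some extent. Among the 212 genes at 1 FPKM or more in both groups, 84 of 210 tested changed, 35 higher and 49 lower. That is 40%, beside 53.0% of all tested genes. At least 2-fold, 10 of these rose and 10 fell, beside 4.10% and 2.92% of all tested genes. Just inside the limit stood 4833445I07Rik, Gm27003 and Gm15050 at a mean of 1.005, 1.005 and 1.008 FPKM, and just outside it Gm17300, 4933432I03Rik and Gm43661 at 0.997, 0.993 and 0.988 FPKM. The 8 genes that could not be tested were Gm27003, Gm14286, Gm17112, Gm15050, Gm38150, Gm31342, CT030636.2 and CR974462.1.

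The class names of the annotation did not always match RefSeq. Of the 261 genes, 157 were lncRNA genes in RefSeq as well, 88 had no RefSeq match, 2 were pseudogenes and 14 were protein-coding. These 14 include Ifi30, a lysosomal thiol reductase, and Cct6a, a subunit of the chaperonin that folds actin and tubulin. Ifi30 stood at 300, 335 and 355 FPKM with RANKL and at 501, 512 and 536 FPKM with etelcalcetide (limma log2 fold change 0.57, SE 0.0686, adjusted p = 0.000181). Cct6a stood at 126, 126 and 119 FPKM with RANKL and at 103, 92.2 and 91.7 FPKM with etelcalcetide (log2 fold change -0.45, limma adjusted p = 0.000316). Without the 14 genes, a setting chosen after seeing the data, 111 of 239 tested lncRNA genes changed, 47 higher and 64 lower. That is 46.4%, beside 53.0% of all tested genes.

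The largest falls were in lncRNA genes that were nearly silent with etelcalcetide. Gm14051, 4930430E12Rik, Gm43351, 2700069I18Rik and Gm29340 had every etelcalcetide value under 0.5 FPKM. They thus entered the set and the test through the RANKL group alone, which required them to be lower. No conclusion is drawn from their adjusted p-values. Gm14051, an antisense gene that overlaps the vitamin C transporter gene Slc23a2 (chromosome 2, 132144533 to 132220250, GRCm38, plus strand), stood at 3.82, 3.68 and 4.02 FPKM with RANKL. It had 0 reads in each of the 3 etelcalcetide libraries, against 66 reads over the RANKL group. This is at least 23.1-fold lower with a floor of 3 reads over the group (limma adjusted p = 1.45e-07). Floors and intervals of this kind account for counting error alone. The bound also lies below the median of the lncRNA genes, so it could not move that median.

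4930430E12Rik, an antisense gene on chromosome 4 (6352105 to 6357530, minus strand), stood at 3.002, 4.72 and 2.73 FPKM with RANKL and at 0.228, 0 and 0.0542 FPKM with etelcalcetide. That corresponded to 182 and 5 reads, or a 38.3-fold difference after adjusting for depth (exact counting interval at 95%, 16.1 to 119). Gm43351, a lincRNA gene on chromosome 3, went from 5.83, 4.64 and 5.91 FPKM to 0.398, 0.446 and 0 FPKM, on 81 and 4 reads. For both genes 1 etelcalcetide library held no read. Their groups did not overlap, which the choice of the largest falls required.

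2700069I18Rik overlaps the zinc finger and homeobox gene Zfhx4 on the opposite strand. It stood at 3.17, 2.27 and 2.30 FPKM with RANKL and at 0.399, 0 and 0.324 FPKM with etelcalcetide (limma log2 fold change -3.32, SE 0.519, adjusted p = 0.000766). Gm29340, a lincRNA gene with a single exon on chromosome 2, went from 1.89, 2.83 and 2.70 FPKM to 0.269, 0.397 and 0.367 FPKM (log2 fold change -2.59). Every etelcalcetide value of both genes was below every RANKL value, which the choice of the largest falls required.

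Gm11716 lies within Pitpnc1, a gene of a phosphatidylinositol transfer protein, on the opposite strand. Its level was 7.39, 6.03 and 7.76 FPKM with RANKL and 0.966, 1.55 and 1.70 FPKM with etelcalcetide (limma log2 fold change -2.35, SE 0.193, adjusted p = 1.93e-05). The other 4 of the 10 largest falls, Gm17749, Gm31718, Gm30108 and Gm13091, had log2 fold changes of -2.04, -1.94, -1.83 and -1.76. Of these, Gm30108 had the widest spread, from 1.46 to 3.07 FPKM with RANKL and from 0.274 to 1.30 FPKM with etelcalcetide, on 45 and 13 reads.

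The 2 largest rises were Gm10825 and Gm26581, both in the Raet1 and H60 cluster on chromosome 10, which encodes ligands of the activating immune receptor NKG2D. Gm10825 (22402883 to 22407470, plus strand) stood at 0.556, 0.534 and 0.446 FPKM with RANKL and at 2.45, 2.50 and 2.77 FPKM with etelcalcetide (limma log2 fold change 2.06, SE 0.143, adjusted p = 7.74e-06). Gm26581 stood at 0.351, 0.464 and 0.569 FPKM, and at 1.93, 2.14 and 1.96 FPKM (log2 fold change 1.86). Both genes reached a mean of 1 FPKM only with etelcalcetide, with means of 0.512 and 0.461 FPKM under RANKL. They thus entered the set through the group where they were higher, and no conclusion is drawn from their adjusted p-values. The transcripts of the 2 genes match each other along 100% of their length at 99.6% identity, so how reads were divided between them is uncertain. Summed, they went from 0.907, 0.998 and 1.01 FPKM to 4.37, 4.65 and 4.74 FPKM. Among the coding genes of the cluster, Raet1d went from 22.8, 23.1 and 22.2 FPKM to 59.5, 54.8 and 52.2 FPKM (log2 fold change 1.21), and Raet1e had a log2 fold change of 1.36; the spans of these 2 genes overlap, so their reads may also be divided unevenly. H60b was at 7.21 to 9.02 FPKM with RANKL and at 7.05 to 9.35 FPKM with etelcalcetide, and did not pass (limma adjusted p = 0.730).

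The RefSeq promoter window of Gm10825 (250 bases before to 50 bases after the start, GRCm38.p6, chr10:22402563-22402862, plus strand) is shown because this gene rose most; capitals mark a GC box, the letters GGGCGG searched on both strands.
Gm10825: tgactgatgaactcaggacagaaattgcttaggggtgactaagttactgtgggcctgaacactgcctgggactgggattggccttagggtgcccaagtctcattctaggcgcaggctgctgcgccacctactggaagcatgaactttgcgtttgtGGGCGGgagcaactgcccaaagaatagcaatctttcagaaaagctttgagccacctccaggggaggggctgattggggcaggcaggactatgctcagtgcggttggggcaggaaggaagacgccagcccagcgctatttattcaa

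Other large rises were spread over the genome. Gm16124, antisense to the ubiquitin ligase scaffold gene Cul5, rose from 0.635, 0.854 and 0.267 FPKM to 2.01, 1.41 and 2.74 FPKM (log2 fold change 1.64). Gm16124 also entered the set through the etelcalcetide group, as its RANKL values were all below 1 FPKM. It shares 21.3% of its exon length with the opposite strand, where Cul5 did not pass at a log2 fold change of -0.32. 4930455G09Rik went from 1.25, 3.10 and 3.06 FPKM to 7.31, 5.66 and 7.22 FPKM, with RANKL replicate 1 well below the others of its group. Gm11613, next to the chromatin reader gene Mllt6, was the most deeply covered of the 3. It stood at 9.91, 12.0 and 12.8 FPKM with RANKL and at 29.1, 29.8 and 30.8 FPKM with etelcalcetide (limma log2 fold change 1.29, SE 0.0906, adjusted p = 8.32e-06). The remaining rises in the largest 10 were Gm26532, Malat1, AC166102.1, AC114539.1 and Gm29093, with log2 fold changes of 1.27 to 1.07.

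**Figure D2:**
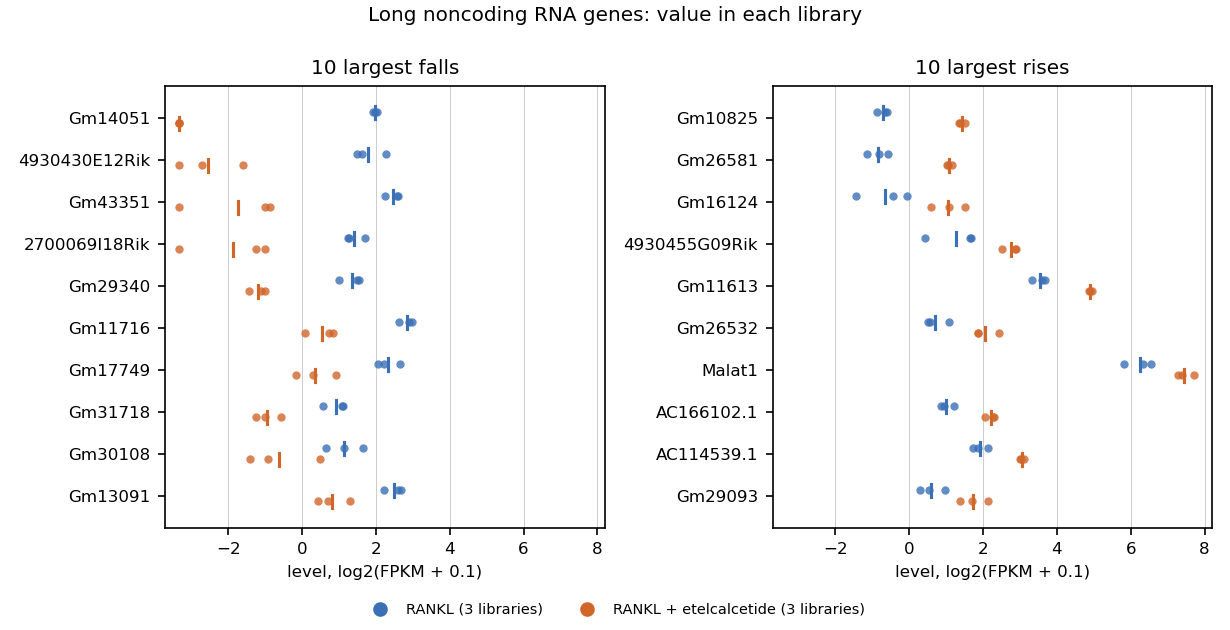
Level of the 10 lncRNA genes with the largest falls (left) and the 10 with the largest rises (right) in each library, as log2(FPKM + 0.1). Each point is 1 library and each bar the mean of a group of 3; the groups do not overlap for any of the 20 genes, which the selection required.

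Bc1 was the most abundant lncRNA gene, and it was higher with etelcalcetide. Bc1 is a short RNA made by RNA polymerase III, best known from neurons, where it takes part in the control of translation. It stood at 1382, 1629 and 1432 FPKM with RANKL and at 4162, 2747 and 2806 FPKM with etelcalcetide (limma log2 fold change 1.03, SE 0.152, adjusted p = 0.000583). Etelcalcetide replicate 1 was the highest, and the groups did not overlap. The deposited levels use an exon length of only 168 bases, so 11384 and 24795 reads over the groups gave a high level per length. A match of at least 95% identity was found elsewhere for 60.1% of the transcript, for instance within Elp6, so reads of such copies may be counted at Bc1 or lost from it.

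The Bc1 transcript is shown whole, from the GENCODE M21 transcripts (GRCm38, chr7:144914470-144914637, plus strand). Capitals mark the A box at bases 14 to 24 and the B box at bases 58 to 66, the inner promoter letters of genes read by RNA polymerase III. On the sense strand, 2 of the 261 lncRNA genes hold both, or 0.766%, and the other is Gm45606.
Bc1: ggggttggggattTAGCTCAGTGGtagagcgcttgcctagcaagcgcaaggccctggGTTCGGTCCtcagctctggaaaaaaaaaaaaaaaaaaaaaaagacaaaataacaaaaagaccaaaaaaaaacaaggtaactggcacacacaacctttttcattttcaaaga

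The 261 lncRNA genes together made up 1.13% ± 0.0348 (SD, n = 3) of the FPKM sum with RANKL and 1.74% ± 0.272 (SD, n = 3) with etelcalcetide. The values did not overlap, and the two-sided exact permutation p = 0.1 is the smallest that 3 against 3 samples can give. The genes were also selected on their level in these same 6 libraries, so no conclusion is drawn from this p. Much of the difference between the shares lay in Bc1: without it the shares were 0.701% ± 0.00934 and 0.773% ± 0.0440 (SD, n = 3). As a share of reads, the lncRNA genes took 0.573% ± 0.0240 and 0.659% ± 0.00316 (SD, n = 3). Malat1 alone took 0.0538% ± 0.0133 of reads with RANKL and 0.123% ± 0.0197 with etelcalcetide (SD, n = 3).

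Among the nuclear and chromatin RNAs, 7 of the 22 genes listed were in the set, and all 7 changed, 4 higher and 3 lower (median log2 fold change 0.37), beside 53.0% of all tested genes changed, 26.0% higher and 27.0% lower. Malat1, which resides in nuclear speckles, stood at 94.0, 56.5 and 80.6 FPKM with RANKL and at 154, 208 and 167 FPKM with etelcalcetide (limma log2 fold change 1.14, SE 0.176, adjusted p = 0.000732). Neat1, the scaffold of paraspeckles and the neighbour of Malat1 on chromosome 19, stood at 11.4, 7.27 and 12.97 FPKM and at 17.8, 17.1 and 19.5 FPKM (limma log2 fold change 0.74, SE 0.176, adjusted p = 0.00705). In both genes RANKL replicate 2 was the lowest library, and all etelcalcetide values lay above all RANKL values. The sources used here do not state how RNA was selected for the libraries, and whether nuclear RNAs were captured evenly was not tested.

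Firre, an X-linked RNA that organises chromatin contacts, went from 3.33, 2.84 and 3.39 FPKM to 4.73, 4.46 and 4.47 FPKM (log2 fold change 0.43). Peg13, an imprinted gene within Trappc9, went from 1.72, 1.61 and 1.59 FPKM to 2.18, 2.33 and 2.29 FPKM (log2 fold change 0.37, limma adjusted p = 0.0192). Without RANKL replicate 2, etelcalcetide replicate 2 or etelcalcetide replicate 3, Peg13 did not pass (limma adjusted p = 0.0535, 0.0831 and 0.0649).

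Tug1, an RNA linked to chromatin repression, went from 7.80, 6.27 and 6.08 FPKM to 5.69, 5.18 and 5.07 FPKM (log2 fold change -0.40). 1700020I14Rik, known as Cyrano or Oip5os1 and as the RNA that triggers decay of the miRNA miR-7, went from 10.0, 7.83 and 7.81 FPKM to 6.68, 6.63 and 7.33 FPKM (log2 fold change -0.38). 2900097C17Rik, known as Norad, which binds Pumilio proteins, had the smallest fall (log2 fold change -0.24, limma adjusted p = 0.0153). It did not pass with library totals alone as the scaling (limma adjusted p = 0.0811), and 51.6% of its transcript has a near copy in the gene Gm7292. Without etelcalcetide replicate 1, only Tug1 of these 3 passed.

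Of 21 snoRNA hosts listed, 14 were in the set; these genes carry snoRNAs, which guide rRNA modification, in their introns. Among the 14, 6 were lower, 1 was higher and 7 did not pass (median log2 fold change -0.15), a share of changed genes near the 53.0% over all tested genes. Gas5, whose spliced RNA also binds the glucocorticoid receptor, stood at 32.9, 28.3 and 27.8 FPKM with RANKL and at 22.7, 22.0 and 22.5 FPKM with etelcalcetide (limma log2 fold change -0.48, SE 0.0703, adjusted p = 0.000545). Snhg5 fell from 11.0, 9.57 and 9.67 FPKM to 7.12, 6.60 and 6.93 FPKM, the largest change of the list (log2 fold change -0.62). Snhg1, Snhg8 and Zfas1 fell by 0.42, 0.35 and 0.28 on the log2 scale, each with no overlap between groups. Epb41l4aos was lower at -0.22, with values that overlapped between groups.

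Snhg17 was the host that was higher, at 2.84, 2.27 and 2.87 FPKM with RANKL and 3.80, 3.32 and 3.66 FPKM with etelcalcetide (log2 fold change 0.35, limma adjusted p = 0.0303). It did not pass without RANKL replicate 2 or without any 1 of the etelcalcetide libraries (limma adjusted p = 0.0531 to 0.104). Without RANKL replicate 3, Snhg20 also passed as higher (limma adjusted p = 0.0275, from 0.205 with all libraries). Epb41l4aos did not pass with library totals alone (limma adjusted p = 0.152) or without RANKL replicate 2, RANKL replicate 3 or etelcalcetide replicate 2 (limma adjusted p = 0.0739 to 0.0983). Dancr, Snhg6, Snhg10 and Snhg15 lay between -0.08 and 0.07 and did not pass. Gas5, Snhg1, Snhg8 and Zfas1 share 15.2% to 20.9% of their exon length with other annotated genes.

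**Figure D3:**
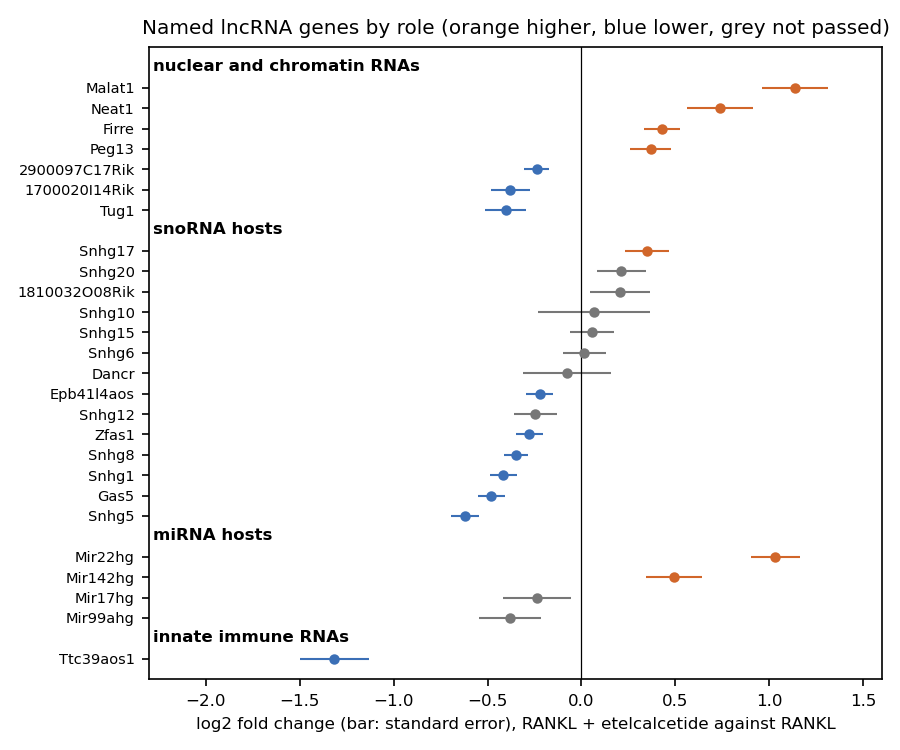
Log2 fold change (point) and its standard error (bar) of the lncRNA genes in the 4 role lists. Orange marks genes that were higher, blue lower and grey not passed; 6 of 14 snoRNA hosts lie on the lower side with a call, and the nuclear RNAs lie on both sides.

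Of 11 genes listed as miRNA hosts, 4 were in the set, 2 of them higher and 2 not passed, a share near the 53.0% of all tested genes that changed. Mir22hg, the host of miR-22, stood at 2.04, 2.65 and 2.07 FPKM with RANKL and at 4.99, 4.39 and 5.53 FPKM with etelcalcetide (limma log2 fold change 1.03, SE 0.130, adjusted p = 0.000235). Mir142hg, the host of the blood cell miRNA miR-142, stood at 26.8, 20.8 and 34.3 FPKM and at 43.6, 38.4 and 37.7 FPKM (limma log2 fold change 0.49, SE 0.149, adjusted p = 0.0211). The Mir142hg call was lost without RANKL replicate 1 (limma adjusted p = 0.0503) and without etelcalcetide replicate 1 (limma adjusted p = 0.0741). Mir17hg stood at 2.16 to 3.45 FPKM with RANKL and 2.02 to 2.83 FPKM with etelcalcetide, and Mir99ahg at 1.21 to 1.69 and 0.980 to 1.21 FPKM. Mature miRNAs themselves were not measured by these tables.

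The mature miRNAs that lie inside the spans of the 2 higher hosts are shown from RefSeq (GRCm38.p6), with the seed, bases 2 to 8 that pair with targets, in capitals. The 4 seeds all differ.
mmu-miR-22-5p: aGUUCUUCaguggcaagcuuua
mmu-miR-22-3p: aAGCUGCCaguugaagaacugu
mmu-miR-142a-5p: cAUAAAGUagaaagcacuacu
mmu-miR-142a-3p: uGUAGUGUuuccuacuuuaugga

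Of 12 lncRNA genes listed for innate immunity, Ttc39aos1 was in the set, and it fell. Ttc39aos1 is known as lincRNA-EPS, an RNA that restrains immune response genes in macrophages. It stood at 2.75, 2.72 and 2.49 FPKM with RANKL and at 1.36, 0.763 and 1.15 FPKM with etelcalcetide (limma log2 fold change -1.32, SE 0.185, adjusted p = 0.000431). All etelcalcetide values lay below all RANKL values. Its neighbour Ttc39a, which starts 468 bases away on the opposite strand, did not pass (log2 fold change 0.25, limma adjusted p = 0.175).

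Some known lncRNA genes of these lists stayed under the limit of 1 FPKM. Pvt1, next to Myc, had a mean of 0.519 FPKM and was lower (log2 fold change -0.78, limma adjusted p = 0.0200). Mir155hg, the host of the inflammatory miRNA miR-155, was covered by 4 reads with RANKL and 26 with etelcalcetide, too few to test. Gm15441 was higher (log2 fold change 0.87, limma adjusted p = 0.0425), whereas Crnde, Dleu2, Ptgs2os2, Gm14005 and Dnmt3aos were tested and did not pass. Xist and Meg3 were listed at 0 in every library.

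The RefSeq promoter window of Ttc39aos1 (GRCm38.p6, chr4:109406208-109406507, minus strand) is shown because this gene held 2 of the motifs searched. Capitals mark an AP-1 motif, TGANTCA, at bases 179 to 185, and an E-box, CACGTG, at bases 192 to 197; they do not overlap.
Ttc39aos1: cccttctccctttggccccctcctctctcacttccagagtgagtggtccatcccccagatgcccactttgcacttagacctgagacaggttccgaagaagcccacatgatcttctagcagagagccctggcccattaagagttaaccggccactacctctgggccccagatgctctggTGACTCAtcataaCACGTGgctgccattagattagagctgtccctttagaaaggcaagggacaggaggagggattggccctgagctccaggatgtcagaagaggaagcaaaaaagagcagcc

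Such a window was found for 139 of the 261 lncRNA genes. Where RefSeq lists several windows for a gene, only the first was counted. The AP-1 letters, which FOS and JUN proteins bind, were in 14 of these windows, beside 7.93% of the windows of 27025 RefSeq genes. By call, they were in 8 of 35 lower genes, 2 of 24 higher genes and 4 of 78 that did not pass. The 8 lower genes were 2010204K13Rik, 3300005D01Rik, A330074K22Rik, D330050G23Rik, D430020J02Rik, Gm11716, Gm31718 and Ttc39aos1. A later window of Gm14051, which was also lower, holds the AP-1 letters and is not in these counts. The E-box was in 18 of the 139 windows, beside 7.24% of all genes, and in 6 of the 35 lower and 3 of the 24 higher genes. Among the lower genes, 2010204K13Rik and 3300005D01Rik held both the AP-1 letters and the E-box, as Ttc39aos1 did. A core motif of interferon response elements was in 4 windows, and an NF-kB motif in 0, beside 3.49% and 0.385% of all genes. GC boxes were in 74 windows, beside 35.9% of all genes, and in 15 of 24 higher and 18 of 35 lower genes. All motifs were searched on both strands, and these counts are descriptions with no test.

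For 195 lncRNA genes, the overlapping or nearest protein-coding gene (start to start) was tested as well. In 54 of these pairs both genes changed, and in 42 of the 54 they changed in the same direction, 17 pairs up and 25 down. For comparison, protein-coding genes and their own protein-coding neighbours gave 1344 of 2020 pairs with both changed, or 66.5%, beside 77.8% for the lncRNA pairs. In the protein-coding list, the same 2 genes could count as 2 pairs, and the difference was not tested. Among lncRNA genes changed at least 2-fold, 16 of 17 such pairs went the same way, and for protein-coding genes changed as much 178 of 228 did. Pairs that share no exon base gave 29 of 37 in the same direction, and pairs that share exon bases 13 of 17. Where the lncRNA gene overlapped the body of its neighbour the count was 21 of 26, and where it overlapped no protein-coding gene 21 of 28. Across the 195 pairs, Pearson's r between the log2 fold changes was 0.43, a description over genes that share the same libraries, and 2 neighbours, Tmem189 and Ulk2, each served for 2 of the pairs with both changed. The value of r was 0.55 with overlap of the neighbour (85 pairs) and 0.31 with no overlap (110 pairs). For starts over 50 kb away without overlap, r was 0.10 over 20 pairs. There, 5 of 7 pairs with both changed went the same way. For starts within 1 kb on the opposite strand, r was 0.47 over 66 pairs, and the count was 10 of 14. Protein-coding genes and their own neighbours gave an r of 0.22. Differences among these values were not tested.

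Several lncRNA genes that fell at least 2-fold had a neighbour that also fell. Gm20554 (chromosome 13, 72626213 to 72628564, minus strand) starts 256 bases from Irx2, a homeobox gene on the plus strand. It stood at 2.59, 2.52 and 3.07 FPKM with RANKL and at 0.910, 0.959 and 0.889 FPKM with etelcalcetide (limma log2 fold change -1.54, SE 0.128, adjusted p = 2.11e-05). As its etelcalcetide values were all below 1 FPKM, Gm20554 entered the set through the RANKL group. Irx2 went from 17.2, 18.04 and 17.9 FPKM to 5.41, 5.63 and 6.22 FPKM (log2 fold change -1.68, SE 0.0701). Both genes fell by a like amount, share no exon base, and their RefSeq promoter windows share 245 bases.

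The window of Gm20554 is shown because most of it also belongs to the Irx2 window (GRCm38.p6, chr13:72628515-72628814, minus strand); capitals mark GC boxes, here as CCGCCC, the reverse complement of GGGCGG.
Gm20554: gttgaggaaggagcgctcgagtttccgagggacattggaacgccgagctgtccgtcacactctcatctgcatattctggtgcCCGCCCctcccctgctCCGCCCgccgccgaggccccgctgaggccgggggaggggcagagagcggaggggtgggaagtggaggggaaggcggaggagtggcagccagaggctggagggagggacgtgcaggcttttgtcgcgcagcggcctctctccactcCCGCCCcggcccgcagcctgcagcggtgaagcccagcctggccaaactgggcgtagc

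Slc23a2, the neighbour of Gm14051, went from 21.4, 21.3 and 22.4 FPKM to 8.02, 7.03 and 7.81 FPKM (log2 fold change -1.58). Zfhx4, the neighbour of 2700069I18Rik, went from 20.2, 17.8 and 15.1 FPKM to 4.52, 4.96 and 5.43 FPKM (log2 fold change -1.89). 6330403L08Rik, antisense to the growth factor gene Pdgfa, had a log2 fold change of -1.10 beside -1.39 for Pdgfa. However, the pair shares exon bases and strandedness is not given, so their reads may not have been told apart. Neighbours of other large falls changed less: Sdcbp by -0.55 beside 4930430E12Rik, Pitpnc1 by -0.72 around Gm11716 and Rere by -0.52 around Gm13091. Tomm20 beside Gm31718 changed by -0.39, and Rpl34 beside Gm43351 by -0.18. Camk2g, which starts 151 bases from Gm30108 on the opposite strand, did not pass (log2 fold change 0.05, limma adjusted p = 0.563). The neighbours of Gm29340 and Gm17749 did not reach the level for the test.

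Rising pairs were found as well. AC114539.1, which starts 1291 bases from Nfkb2 on the opposite strand, stood at 3.23, 3.53 and 4.29 FPKM with RANKL and at 8.12, 7.96 and 8.57 FPKM with etelcalcetide (log2 fold change 1.07, SE 0.105). Nfkb2, a subunit of the noncanonical NF-kB pathway through which RANKL also signals, went from 30.6, 32.6 and 35.8 FPKM to 62.6, 63.4 and 59.8 FPKM (log2 fold change 0.83, limma adjusted p = 1.57e-05). The lncRNA gene shares 30.1% of its exon length with the opposite strand. Strandedness is not given, so its reads may not have been fully told apart from those of Nfkb2. 2010001A14Rik and Sap30l, which start 220 bases apart and share no exon base, were both higher (log2 fold change 1.06 and 0.48).

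In 12 pairs the genes went opposite ways, 5 with the lncRNA gene higher and 7 with it lower. Map2k3os fell by 1.35 on the log2 scale, from 3.30, 3.12 and 4.53 FPKM to 1.86, 1.07 and 1.48 FPKM, while the kinase gene Map2k3, 166 bases away, was higher by 0.15 (limma adjusted p = 0.0470). Zfas1 was lower and its neighbour Znfx1, an antiviral helicase gene, higher (log2 fold change 0.44, limma adjusted p = 0.000303). AW046200 was higher by 0.63 and the glycosyltransferase gene Galnt7, with which it shares exon bases, lower, at -0.64.

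**Figure D4:**
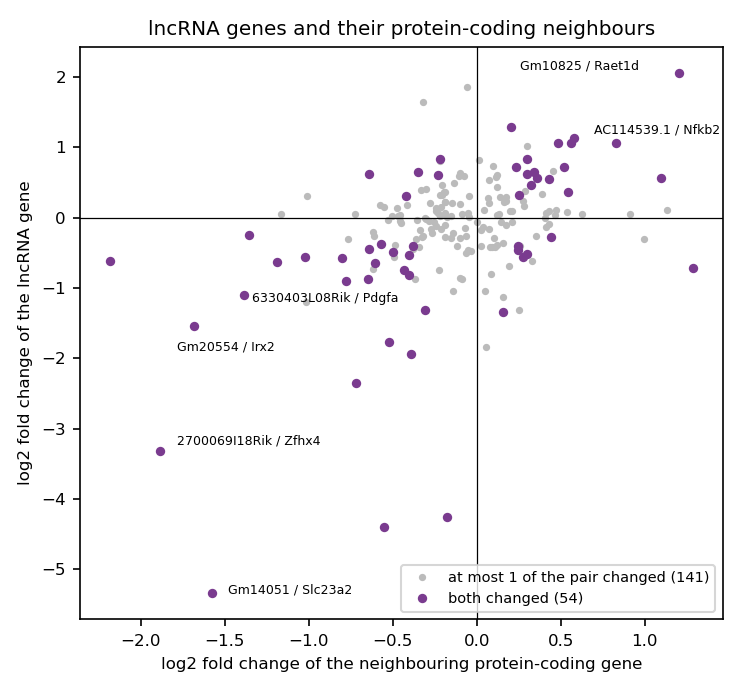
Log2 fold change of each lncRNA gene (vertical) against that of its overlapping or nearest protein-coding gene (horizontal) for the 195 pairs with both tested. Purple points are the 54 pairs in which both changed, and 42 of them lie at the lower left or upper right, where the directions are the same.

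Gm26917 and Gm15564 were 2 abundant genes whose values stood beside those of ribosomal RNA. Gm26917 (chromosome 17, 39843013 to 39846341, plus strand) ends next to the rRNA gene CT010467.1 (39846353 to 39848827). Gm26917 stood at 124, 128 and 158 FPKM with RANKL and at 40.8, 46.7 and 40.4 FPKM with etelcalcetide (limma log2 fold change -1.75, SE 0.0977, adjusted p = 2.17e-06). CT010467.1 itself stood at 4469, 4482 and 6548 FPKM with RANKL and at 2624, 10240 and 1309 FPKM with etelcalcetide, and did not pass (limma adjusted p = 0.352). The groups were separate for Gm26917 and mixed for the rRNA gene beside it, and the part of rRNA in the value of Gm26917 was not tested.

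Gm15564, an antisense gene within the nuclear import gene Kpna1, stood at 51.1, 51.8 and 62.0 FPKM with RANKL and at 22.1, 72.0 and 13.8 FPKM with etelcalcetide. It did not pass (limma log2 fold change -1.04, SE 0.487, adjusted p = 0.101), and its 6 libraries ranked in the same order as those of CT010467.1, with etelcalcetide replicate 2 highest and replicate 3 lowest. No stretch of its transcript of at least 100 bases matched another transcript at 95% identity or more, and the part of rRNA in its value was not tested.

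**Figure D5:**
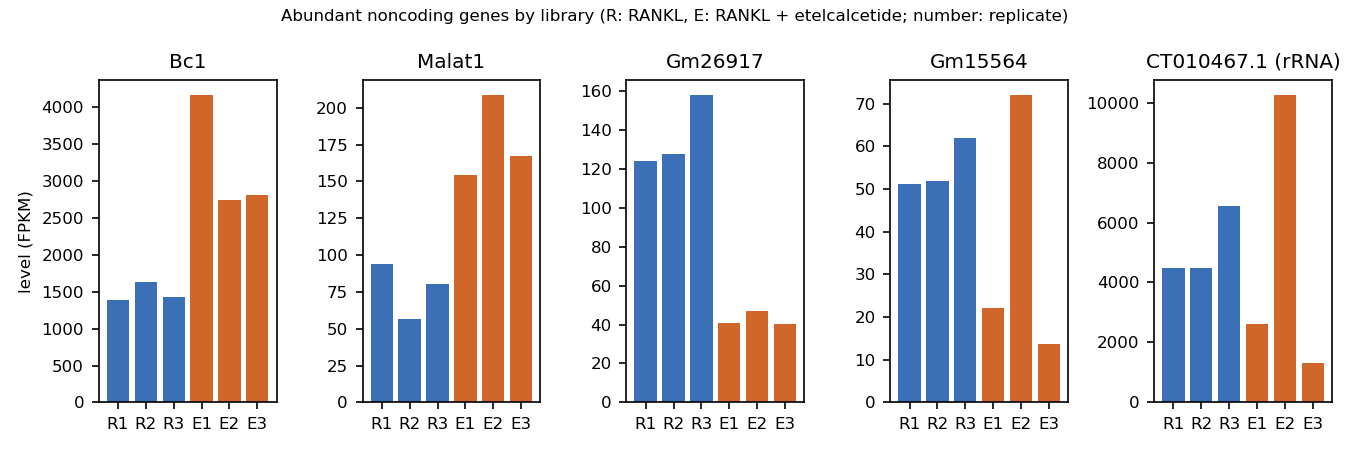
Deposited level (FPKM, each axis starting at 0) in each library of 4 abundant lncRNA genes and of the rRNA gene CT010467.1. Bc1 and Malat1 are higher and Gm26917 lower in all 3 etelcalcetide libraries, whereas Gm15564 and CT010467.1 are highest in etelcalcetide replicate 2 and lowest in replicate 3.

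Abundant lncRNA genes were not all changed. AC158975.2, second in level, stood at 415, 451 and 450 FPKM with RANKL and at 486, 447 and 491 FPKM with etelcalcetide and did not pass (log2 fold change 0.03, limma adjusted p = 0.657). 2410006H16Rik stood at 88.7 to 105 FPKM and at 88.3 to 100.2 FPKM (limma adjusted p = 0.315). Gm42047 was lower, at 55.4, 51.7 and 55.0 FPKM against 44.1, 42.5 and 43.9 FPKM (log2 fold change -0.39, limma adjusted p = 0.000197). For AC158975.2 and Gm42047, 98.9% and 64.2% of the transcript match 1 other gene each, so their counts are uncertain. In all, 13 lncRNA genes have more than 50% of their transcript in copies elsewhere, and 117 share exon bases with another gene.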

How the data were processed

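Deposited tables, 1 for each library, hold FPKM for 55536 Ensembl IDs as the authors computed it, and groups follow the sample labels. The submitters' processing notes list HISAT2 2.1.0, featureCounts 1.6.0, Trimmomatic 0.38, DESeq2 1.22.1, CASAVA, MultiQC and FastQC without saying what each did. Those notes name the human build GRCh38, but every ID matched the mouse annotation GENCODE M21 (GRCm38), which gave classes and coordinates (1-based). Strandedness and library selection are not given in the sources used here.

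FPKM multiplied by merged exon length gave whole reads for 100% of values (tolerance 0.01 reads). FPKM was scaled with factors from those reads, each a trimmed mean of M values (trimming 30% and 5%), a pseudocount of 0.1 FPKM was added, and the log2 scale was fitted with limma 3.58.1 (R 4.3.3, trend) with group as the only term, for all genes at once. Fold changes are on that log2(FPKM + 0.1) scale, which understates changes of low genes; printed levels are as deposited. The steps were tested on simulated data. Copies were sought with BLAST 2.17.0 (at least 100 bases, 95% identity), and promoters and miRNAs came from RefSeq.

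Described genes were the 8 with the highest mean, the 10 largest rises and 10 largest falls with no overlap between groups, role list members and genes at the FPKM limit; Gm15564, genes named with their neighbours and those in the motif lists were chosen after their values were seen. The members and lists were chosen with earlier results of these data known. Alternatives covered scaling, pseudocount, filter, model, membership, shared exons, each library left out and a replicate block.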

Additional observations from a re-analysis of the deposited data

How the results depend on the processing

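The counts of changed, higher and lower lncRNA genes were recomputed under the scaling, pseudocount, filter, model, replicate, membership and shared-exon alternatives, and the role lists under those that keep the same members. The number of changed lncRNA genes was 101 to 114 with 1 library left out (higher 38 to 55, lower 55 to 64), 90 with no filter, 103 with voom weights on the recovered reads and 112 with library totals alone. That last scaling gave 57 higher and 55 lower, where the main scaling gave 50 and 66; it moved the median of all genes to 0.07 and the split over all genes from 2896 higher and 2998 lower to 3558 and 2272. Smaller sets gave smaller counts by construction: 70 of 135 changed at a mean of 2 FPKM or more (31 higher, 39 lower), and 65 of 138 without genes that share exon bases (23 higher, 42 lower), where 21 of 24 neighbour pairs went the same way. Same-numbered replicates did not deviate together (correlations 0.07, -0.02 and -0.03), so the numbers were not used as pairs; with a replicate block 123 lncRNA genes changed, 53 higher and 70 lower, 114 of them among the 116.

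Of 53 described and tested genes, 718 values were recomputed, of which 22 lost and 2 gained a call. With 1 RANKL library left out, Gm14051, 4930430E12Rik, Gm43351, 2700069I18Rik and Gm29340 could not be tested. Their etelcalcetide values were all under 0.5 FPKM, so they needed all 3 RANKL libraries to reach the filter. Their large falls were thus not checked in this way. With no filter, Peg13, Snhg17, Mir142hg and Epb41l4aos did not pass (limma adjusted p = 0.0578 to 0.0823). Epb41l4aos also did not pass with voom (0.193), 1700020I14Rik without etelcalcetide replicate 1 (0.0504) and 2900097C17Rik without etelcalcetide replicate 2 (0.0525). Signs turned only in genes without a call, when 1 library was left out: AC158975.2 ranged from -0.0068 to 0.0591, Dancr from -0.33 to 0.10, Snhg10 from -0.21 to 0.33, Snhg15 from -0.0620 to 0.16, and Snhg6 from -0.0469 to 0.12; the cause was not tested. Of the miRNA hosts, 1 was higher with no filter, and Mir99ahg was lower with voom (limma adjusted p = 0.0152). Depth limits the set: 104 of the tested genes had a mean of 10 to under 50 reads per library.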
